A study of Mus musculus with 6 samples.

Results

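The Hox genes were examined in primary mouse embryonic fibroblasts on 6 dual-colour Agilent Whole Mouse Genome arrays. The members were the non-control probes whose whole gene name is Hoxa, Hoxb, Hoxc or Hoxd followed by a number. There were 49 such probes among 41174 non-control probes, and they stood for 38 of 29742 gene names: 11 in the Hoxa, 10 in the Hoxb, 8 in the Hoxc and 9 in the Hoxd cluster. Of these genes, 27 had 1 probe and 11 had 2. For the latter the probe with the higher mean intensity represents the gene, and the other is called the dimmer probe. The cultures were grown from minced embryos of stage E15 by the labels, either wild type (WT) or lacking part of the helicase domain of Wrn, the mouse homologue of the Werner syndrome gene (WS in the labels), both on a mixed genetic background. Treated cells received 0.5 mM H2O2 for 1 h and recovered for 24 h in fresh medium, and untreated cells of the same genotype were their controls. On 2 WT and 2 WS arrays the treated RNA carried Cy5 and the untreated RNA Cy3. A further 2 arrays, replicates 3 and 4, set untreated WT directly against untreated WS cells. No array had the dyes exchanged, so dye and treatment cannot be told apart. The labels call the replicates biological without saying that they came from different embryos, and p-values therefore speak only for these arrays. The spread behind them was pooled by limma with that of all probes. The genotype fits had at most 2 residual degrees of freedom, beside 20.6 (untreated) and 39.9 (treated) drawn from all probes. The fit of the ratios had at most 3, beside 4.18. The p-values and standard errors thus rest largely on the pooled spread.

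Hox genes encode homeodomain transcription factors. They lie in 4 clusters, and within a cluster the genes with low paralog numbers are switched on towards the head and those with high numbers towards the tail and, in the Hoxa and Hoxd clusters, along the limb. Fibroblasts keep much of the Hox pattern of the site they came from when they are grown in culture, so the set of Hox genes that a culture transcribes is used as a record of position. A minced embryo mixes such sites, and on these arrays a larger share of cells from one site and more RNA per cell cannot be told apart.

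Of all probes, between 75.7% and 89.9% were well above background in Cy3 and between 41.3% and 69% in Cy5, so the treated channel of the 4 treatment arrays was the weaker one. Spots that the extraction software marked as outliers were left out of all fits. They made up 22.6% of the spots on WT replicate 2, 8.81% on WS replicate 2 and at most 3.25% on the others. Among the Hox spots, 12 were marked on WT replicate 2, 7 on WS replicate 2 and 1 on direct replicate 4. This left a single array of a genotype for 16 of the 49 probes on the treatment arrays. Among them were, in WT cells, Hoxa6, Hoxa9, Hoxc4, Hoxd4, both probes of Hoxd9 and the dimmer probes of Hoxa4 and Hoxd13, in WS cells Hoxa2, Hoxc8, the brighter probe of Hoxd3 and the dimmer probe of Hoxc10, and in both genotypes Hoxb13, Hoxd8 and the brighter probe of Hoxa13. No Hox spot was saturated. All 4 probes for Wrn gave values that differed between the genotypes by no more than 0.79 on the log2 scale in untreated cells of the treatment arrays, none of them called there, and 1 of the 4 was called on the direct arrays (-0.90 as Cy5 over Cy3). Where they lie relative to the deleted part is not given in the sources used here, so they check nothing. All 10 fibroblast markers listed were well above background in Cy3 on all 4 treatment arrays. Of the markers of other cells, 6 of 7 for macrophages, 2 of 5 for mast cells, 5 of 6 for skeletal muscle, 5 of 6 for epithelium, 1 of 4 for endothelium, 5 of 6 for neural cells, 4 of 4 for cartilage and 2 of 4 for urogenital mesenchyme were so. Cdh1, the epithelial cadherin, and Wt1, a urogenital marker, were so on none of these arrays.

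Hox genes from all regions of the clusters were flagged well above background, at a share near that of all probes. In Cy3, between 26 and 37 of the Hox genes with an unmarked spot were well above background on an array (81.6% to 97.4%), and in Cy5 between 16 and 30 (47.1% to 78.9%). By position, the Cy3 range was 6 to 8 genes for paralogs 1 to 3, 8 to 15 for paralogs 4 to 8 and 10 to 14 for paralogs 9 to 13. Genes with low, middle and high paralog numbers were thus flagged on every array. A gene counts here when either of its probes is flagged, so shares by gene and by probe are unlike measures. By probe, the Cy3 share on an array was 69.4% to 95.9% for Hox probes, beside 75.7% to 89.9% of all probes. These flags alone therefore do not show the regional make-up of the cultures. Over the probes, 32 of 49 (65.3%) were well above background in Cy3 on every array with an unmarked spot, beside 67.9% of all non-control spots, and 21 (42.9%) in both dyes, beside 39.4%. The Hox share lay near that of all spots. The dimmer probe of Hoxb6 was well above background in no channel.

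A few genes had flags that differed between the untreated WT and WS cultures of the treatment arrays. How many of all probes did so was not counted, and with 2 arrays per genotype this is only a description. Hoxd10 and Hoxd11, which act in the limb and the posterior trunk, were well above background in Cy3 on both WT arrays and on neither WS array, and Hoxc8, a gene of the thoracic region, the other way round with 1 WS spot unmarked. Hoxb1, Hoxc12 and Hoxc13, genes of the hindbrain and of the skin and tail, were well above background in Cy3 of 3, 2 and 1 of the 6 arrays and in Cy5 of none. Levels of different probes cannot be set against each other, so these flags say nothing of which Hox gene was most abundant.

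**Figure D1:**
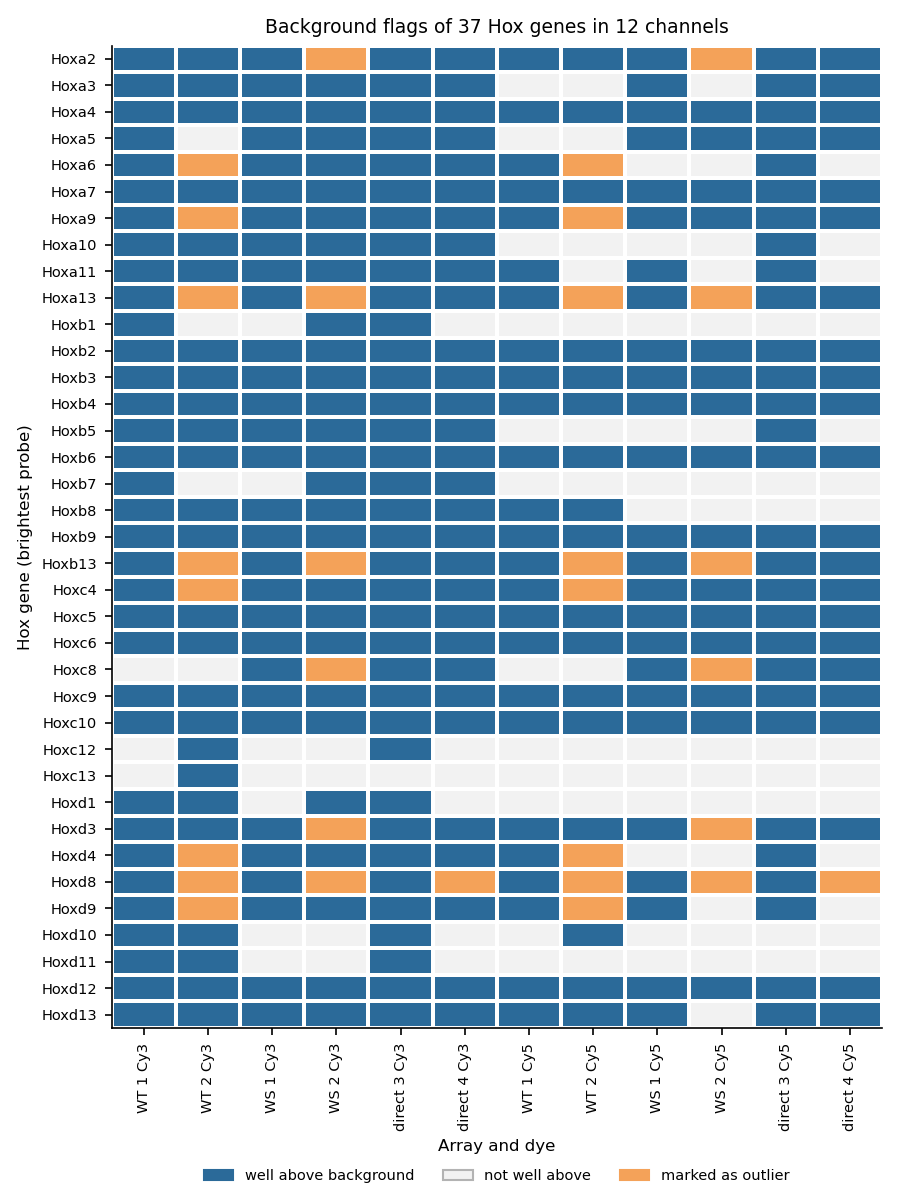
Background flags of the brightest probe of 37 of the 38 Hox genes (rows, ordered by cluster and paralog number) on each array and dye (columns). Blue marks a spot well above background, grey one that is not, and orange one marked as an outlier. Most genes are blue in Cy3 throughout, Hoxc8 is grey in both WT arrays, and Hoxd10 and Hoxd11 are grey in both WS arrays.

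Whether the mutant and wild type cultures had the same Hox pattern was asked first of the untreated cells, by setting the Cy3 levels of the WS arrays against those of the WT arrays. The contrast lies between arrays, and as the sources used here do not give which parts of the embryos entered each culture, genotype and make-up of the cultures cannot be told apart. The 5 probes that were higher in WS cells all lay in the Hoxa and Hoxc clusters, between paralogs 5 and 9: Hoxa5, Hoxa7, Hoxc6, Hoxc8 and Hoxc9. The 4 that were lower all lay in the Hoxd cluster: Hoxd4, Hoxd8, Hoxd9 and the dimmer probe of Hoxd3. These 9 calls, at an adjusted p under 0.05 in limma, were 18.4% of the 49 Hox probes, while 1.56% of all 40267 probes tested were called, 0.971% higher and 0.589% lower. Over all Hox genes the median difference was 0.27 on the log2 scale, beside 0.07 over all probes. By cluster it was 0.43 for Hoxa, 0.27 for Hoxb, 0.86 for Hoxc and -0.70 for Hoxd, and by position 0.41 for paralogs 1 to 3, 0.72 for paralogs 4 to 8 and 0.01 for paralogs 9 to 13. In all, 29 of the 38 genes lay above 0, beside 22178 of all 40267 probes.

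**Figure D2:**
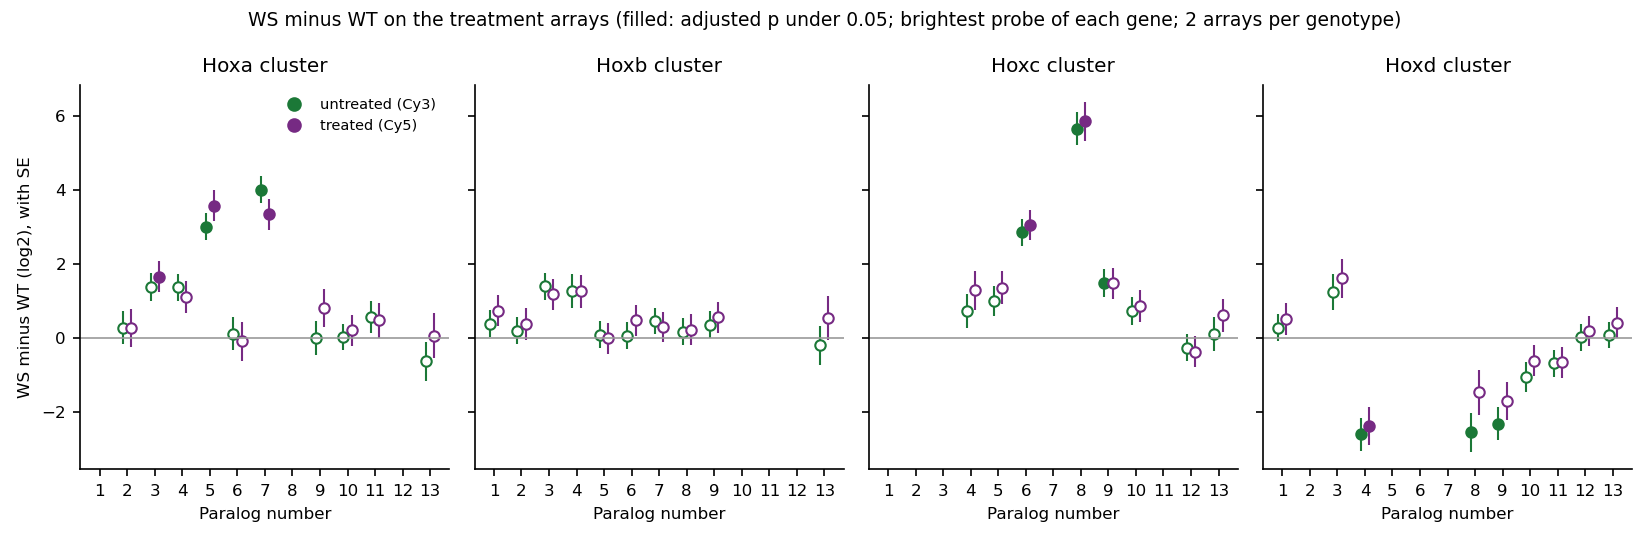
Difference in log2 intensity between WS and WT cells for the brightest probe of 37 of the 38 Hox genes, by paralog number, in the 4 clusters. Green is untreated cells (Cy3) and purple treated cells (Cy5), bars are limma's standard errors with 2 arrays per genotype, and filled points have an adjusted p under 0.05. The filled points lie above 0 in the Hoxa and Hoxc clusters and below 0 in the Hoxd cluster, and the Hoxb cluster has none.

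Hoxc8, which patterns thoracic vertebrae and the motor neurons of the forelimb, differed most. Its normalised log2 intensity in untreated cells was 3.51 and 3.88 on the WT arrays, neither of them well above background, and 9.35 on WS replicate 1. WS replicate 2, marked as an outlier, read 9.37. As the WT spots were not well above background, only a bound can be given: against their own readings, which lay above the lowest well-above signal of their arrays, it was at least 50.4-fold higher in WS cells (limma, adjusted p = 2.19e-07). Hoxc6, its neighbour in the cluster and also a gene of the thoracic region, read 6.46 and 6.19 in WT cells and 9.35 and 9.0 in WS cells. That is a log2 difference of 2.86 ± 0.36 (SE) or 7.24-fold, with an adjusted p of 4.84e-05. Hoxc9, which sets thoracic identity in the spinal cord, read 5.70 and 4.94 in WT and 7.04 and 6.57 in WS cells, a difference of 1.48 ± 0.38 with an adjusted p of 0.0482. The WT and WS readings of these 3 genes did not overlap, but the genes were picked by the same values, so this adds no support. How many of all probes did not overlap was not counted. The rest of the cluster was not called: the differences were 0.72 for Hoxc4, 0.99 for Hoxc5, 0.72 for Hoxc10, -0.27 for Hoxc12 and 0.11 for Hoxc13.

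In the Hoxa cluster the call fell on Hoxa7 and Hoxa5, the latter a gene needed for the neck vertebrae and the lung. Hoxa7 read 4.90 and 4.58 in WT and 9.02 and 8.47 in WS cells, a log2 difference of 4.01 ± 0.37, or 16.1-fold, with an adjusted p of 9.43e-07. Hoxa5 read 4.14 and 3.78 in WT, the second not well above background, and 6.87 and 7.07 in WS cells, a difference of 3.01 ± 0.36 with an adjusted p of 2.27e-05. Hoxa6, which lies between them, was not called, with a difference of 0.10 (95% interval -0.82 to 1.03), or -1.20 with the marked spot counted. It read 5.89 on WT replicate 1, the only unmarked WT spot (8.5 on the marked one), and 6.01 and 5.98 in WS cells. Of the genes on the head side of Hoxa5, Hoxa4 differed by 1.36 (95% interval 0.58 to 2.14) and Hoxa3 by 1.38 (0.60 to 2.15), with adjusted p of 0.07 and 0.0662. Their dimmer probes gave -0.17 and 0.06, so the probes of these genes disagree. From Hoxa9 to Hoxa11 the difference was at most 0.56. Hoxa13, a gene of the digits, genitals and hindgut, gave -0.64 with 1 unmarked array in each genotype.

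The promoters of Hoxa5 and Hoxa7 are shown because both genes were higher in WS cells. Each window holds the 250 bases before the RefSeq start on GRCm38.p6, read on the gene's strand (minus for both) from chr6:52204588-52204837 for Hoxa5 and chr6:52218574-52218823 for Hoxa7. Capitals mark TAAT, the core that homeodomains bind, and TATAAA, the TATA box, on either strand.
Hoxa5: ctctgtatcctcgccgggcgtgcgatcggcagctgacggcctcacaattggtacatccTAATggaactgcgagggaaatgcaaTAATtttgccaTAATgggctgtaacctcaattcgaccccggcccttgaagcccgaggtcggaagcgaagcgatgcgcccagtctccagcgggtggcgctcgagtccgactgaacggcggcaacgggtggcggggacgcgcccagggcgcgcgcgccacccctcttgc
Hoxa7: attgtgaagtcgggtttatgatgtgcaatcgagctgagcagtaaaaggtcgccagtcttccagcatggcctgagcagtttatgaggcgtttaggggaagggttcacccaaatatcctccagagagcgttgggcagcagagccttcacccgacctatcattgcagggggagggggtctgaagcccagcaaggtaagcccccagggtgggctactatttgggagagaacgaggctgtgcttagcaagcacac
Hoxa5 holds 3 TAAT matches, the first 192 bases before the start, and Hoxa7 none. Of all 32851 RefSeq windows of this length 54.9% hold a TAAT and 12.4% a TATAAA. Hoxa5 has 28 CpG and Hoxa7 has 7, beside a median of 6.

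In the Hoxd cluster 4 probes were lower in WS cells, while 4 of the 9 genes lay above 0 by their brightest probe, none of them called. Hoxd4, a gene of the hindbrain and neck, read 7.66 on WT replicate 1 and 5.14 and 4.94 in WS cells, while the marked spot of WT replicate 2 read 6.91. The log2 difference was -2.62 ± 0.45, or 6.14-fold lower in WS cells, with an adjusted p of 0.00183. Hoxd8 read 9.07 on WT replicate 1 and 6.52 on WS replicate 1. The marked spots on the other arrays read 8.80 and 6.98, so the genotypes kept apart with the marked spots counted, by -2.19 against the fitted -2.56 (adjusted p = 0.0115). With 1 array on each side, that p rests on the spread pooled over other probes. Hoxd9, which acts with Hoxa9 in the upper limb, read 7.68 on WT replicate 1 (6.74 on the marked spot) and 5.39 and 5.31 in WS cells, a difference of -2.33 ± 0.45 with an adjusted p of 0.00567. Its dimmer probe gave -1.56 and was not called (adjusted p = 0.0873).

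The other genes of the cluster differed less, and the probes of Hoxd3 disagreed. Hoxd3, which shapes the first neck vertebrae, was lower in WS cells by its dimmer probe (5.85 and 5.6 against 3.45 and 4.62, a difference of -1.69 ± 0.40 with an adjusted p of 0.0278). Its brighter probe was not called and gave 1.24 in the opposite direction (adjusted p = 0.246). Hoxd10 and Hoxd11, not well above background in WS cells, gave at least 2.09-fold and at least 1.62-fold lower levels there, with adjusted p of 0.243 and 0.431, neither called. Hoxd12 read between 7.07 and 7.70 in all 12 channels, and Hoxd13, the gene of the digits, differed by 0.08.

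The promoters of Hoxd4, Hoxd8 and Hoxd9 are shown as the genes that were lower in WS cells, in the same way as above. The windows are chr2:74721728-74721977, chr2:74704365-74704614 and chr2:74697513-74697762, all on the plus strand.
Hoxd4: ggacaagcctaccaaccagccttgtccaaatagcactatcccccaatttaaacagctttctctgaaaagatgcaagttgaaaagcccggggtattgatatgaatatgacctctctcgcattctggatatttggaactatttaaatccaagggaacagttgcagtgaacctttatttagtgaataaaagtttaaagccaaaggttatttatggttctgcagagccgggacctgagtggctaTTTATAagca
Hoxd8: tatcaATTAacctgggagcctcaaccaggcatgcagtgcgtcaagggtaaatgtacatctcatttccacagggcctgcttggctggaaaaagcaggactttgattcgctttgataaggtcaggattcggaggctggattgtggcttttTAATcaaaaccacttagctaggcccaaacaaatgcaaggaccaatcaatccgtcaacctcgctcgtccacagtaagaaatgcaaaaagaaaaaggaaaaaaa
Hoxd9: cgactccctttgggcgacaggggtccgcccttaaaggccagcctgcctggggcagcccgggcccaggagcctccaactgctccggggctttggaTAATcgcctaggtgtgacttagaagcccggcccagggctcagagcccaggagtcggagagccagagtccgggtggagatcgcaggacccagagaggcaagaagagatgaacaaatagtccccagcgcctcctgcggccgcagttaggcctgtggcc
Hoxd4 holds no TAAT and 1 TATAAA on the minus strand, which begins 10 bases before the start. Hoxd8 holds 2 TAAT matches and Hoxd9 holds 1. The CpG counts are 3, 6 and 13. Among the genes that were higher, Hoxa5 has 28 and Hoxa7 has 7, and no window was found for Hoxc6, Hoxc8 and Hoxc9. The part of these letters in the genotype differences was not tested.

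No gene of the Hoxb cluster was called in untreated cells. The largest difference was 1.39 for Hoxb3 (95% interval 0.63 to 2.15, adjusted p = 0.058), where WT cells read 6.07 and 5.95 and WS cells 7.69 and 7.11. The probe for Hoxb3 also carries an accession of Hoxd3, so its value is uncertain. Hoxb4 followed with 1.26 (0.31 to 2.20), with readings of 7.56 and 5.71 in WT and 8.17 and 7.62 in WS cells, and the other 8 genes lay between -0.20 and 0.45. The intervals of Hoxb3 and Hoxb4 do not reach 0, but neither passed the adjustment over all probes.

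The calls depended on single arrays, on the background correction and on other settings. The share of all probes called is not given for these settings, so the counts do not describe the Hox genes in particular. Without WS replicate 1, 4 of the 42 Hox probes that still had a value were called (Hoxa7, Hoxa5, Hoxc6 and Hoxd4), and without WT replicate 1 there were 13 of 37. With normexp in place of plain subtraction the calls of Hoxc8, Hoxa7, Hoxa5 and Hoxc6 remained and those of Hoxc9 and the 4 Hoxd probes were lost. With marked spots kept the calls of Hoxc9, Hoxd9 and the dimmer probe of Hoxd3 were lost, with the array as a random block over 8 channels those of Hoxc9, Hoxd8 and the dimmer probe of Hoxd3, and with median centring those of Hoxc9 and the dimmer probe of Hoxd3. Hoxc9 also lost its call without WT replicate 2 (1.10, adjusted p = 0.247) and without WS replicate 2 (1.71, adjusted p = 0.29), the dimmer probe of Hoxd3 without WT replicate 2 (-1.82, adjusted p = 0.059) and Hoxd9 without WS replicate 2 (-2.29, adjusted p = 0.108).

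**Figure D3:**
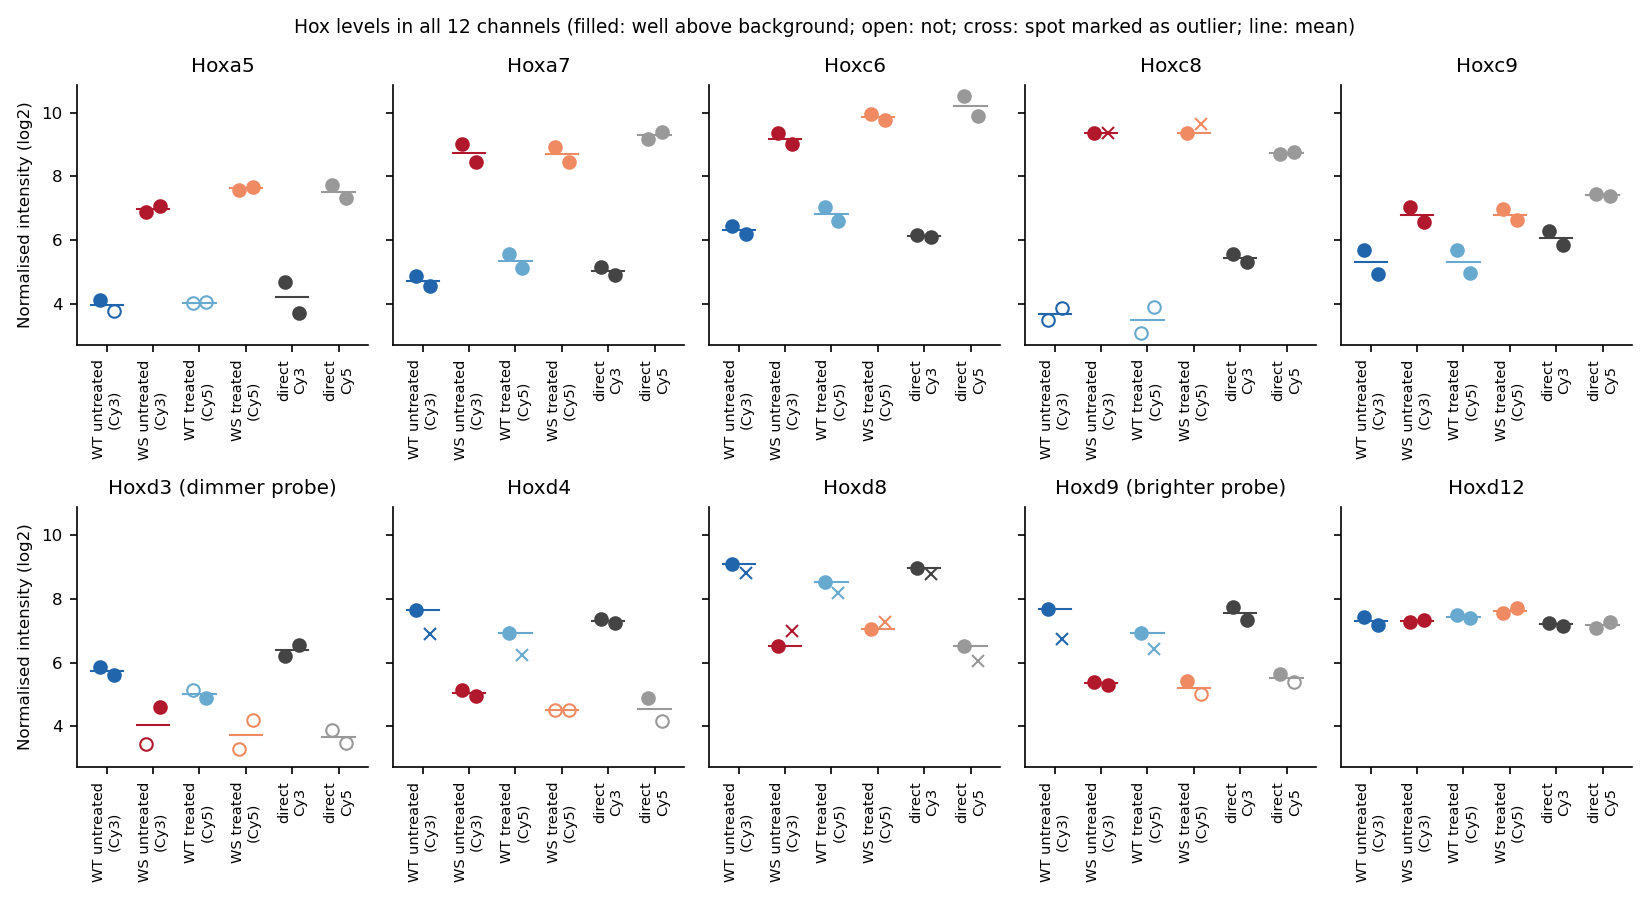
Normalised log2 intensity of 9 Hox probes called in untreated cells and of Hoxd12 in each of the 12 channels, by genotype and treatment on the treatment arrays and by dye on the direct arrays. Each point is 1 array, filled where well above background and open where not, crosses are spots marked as outliers, and lines are means of unmarked spots. Hoxa5, Hoxa7, Hoxc6 and Hoxc8 lie higher in both WS groups, the other Hoxd probes lower, and Hoxd12 stays between 7.07 and 7.70.

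In treated cells the same contrast was read in Cy5. Here 6 Hox probes were called (12.2%), 5 higher and 1 lower, beside 1.54% of all probes, 1.06% higher and 0.487% lower. Of these, 5 were also called in untreated cells. Hoxc8 read 3.10 and 3.90 in WT cells and 9.36 on WS replicate 1 (9.65 on the marked spot), at least 24.3-fold higher in WS cells. Hoxa5 read 4.04 and 4.07 against 7.58 and 7.67, at least 7.32-fold higher. Hoxa7 read 5.57 and 5.14 against 8.93 and 8.45, a log2 difference of 3.34 ± 0.42. The readings of these trunk genes lay apart in the treated cells as well, but the genes were picked by these values, so this adds no support. Hoxc6 read 7.03 and 6.59 against 9.96 and 9.77, a difference of 3.05 ± 0.42, and the adjusted p of these 4 genes was at most 5.02e-06. Hoxd4 read 6.93 on the unmarked WT array and 4.52 and 4.53 in WS cells, at least 2.91-fold lower (adjusted p = 0.00515). Bounds are given because WT cells (Hoxc8, Hoxa5 and, below, Hoxa3) or WS cells (Hoxd4) were not well above background in Cy5. The remaining call was Hoxa3, a gene of the thymus and parathyroid, which read 4.51 and 4.71 in WT and 6.28 and 6.24 in WS cells, at least 2.63-fold higher (adjusted p = 0.0256). Of these spots only that of WS replicate 1 was well above background. The dimmer probe of Hoxa3, well above background on none of these arrays in Cy5, gave 0.52 and was not called (adjusted p = 0.753). Hoxc9 (1.47, adjusted p = 0.0672), Hoxd9 (-1.72, adjusted p = 0.0882) and Hoxd8 (-1.48, adjusted p = 0.294) were not called in Cy5. Without WS replicate 1 fewer Hox probes were called and without WT replicate 1 more, and the share of all probes is not given for either. Hoxa3 and Hoxd4 lost their calls without either WS array, with adjusted p between 0.141 and 0.589.

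The direct arrays gave the contrast of untreated cells a second time, in cultures 3 and 4. The labels put WT in Cy5 and WS in Cy3, whereas the study tabulates the same ratio as mutant over wild type, so the genotype that each dye carried is not settled and the values are given as Cy5 over Cy3. Turned to the other reading, every sign below changes. Of the 49 Hox probes, 15 (30.6%) were called, 8 higher and 7 lower in Cy5, beside 19.9% of all probes, 10.2% higher and 9.76% lower. The highest were Hoxa7 (4.02 and 4.46 on the 2 arrays, adjusted p = 0.000136), Hoxc6 (4.35 and 3.76, adjusted p = 0.000241), Hoxa5 (3.02 and 3.59, adjusted p = 0.000411) and Hoxc8 (3.15 and 3.43, adjusted p = 0.000707). Hoxa3, Hoxa4, Hoxb3 and Hoxc9 followed with means of 1.92, 1.88, 1.64 and 1.35. Hoxc4 (0.16), Hoxc5 (-0.48) and Hoxa6 (-0.06) were not called.

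The 7 probes lower in Cy5 were 6 of the Hoxd cluster, from 5 genes, and 1 of Hoxa13. Hoxd4 read -2.46 and -3.06 (adjusted p = 0.00136), Hoxd9 -2.12 and -1.96 (adjusted p = 0.00202) and Hoxd8 -2.44 on the 1 unmarked array (adjusted p = 0.0109). The dimmer probe of Hoxd3 was at least 2.52-fold brighter in Cy3, where both spots were well above background, than in Cy5, where neither was (adjusted p = 0.000902). The dimmer probe of Hoxd9 and Hoxd13 were called at -1.01 and -0.89. Hoxa13, with -2.83 and -1.12, was the 1 called gene outside the Hoxd cluster on this side (adjusted p = 0.0313). Its call was lost in 6 of 13 alternatives, among them without WS replicate 1 or without WS replicate 2, which share the fit. Without direct replicate 3, which held the larger Hoxa13 ratio, 24 Hox probes were called and 43.7% of all probes.

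The sign of these ratios was set beside that of WS minus WT in Cy3 of the treatment arrays, for which labels and methods give the same dyes. All 9 Hox probes called there had the same sign in Cy5 over Cy3 on the direct arrays, as did 33 of all 49, with a Pearson r of 0.87 over the Hox probes. Over all probes r was 0.62, and 617 of the 626 probes called there with a value on the direct arrays (98.6%) had the same sign. Genes and probes are not independent replicates, and this is a description. By the labels the Hox pattern of cultures 3 and 4 was the reverse of that of cultures 1 and 2, and with the dyes read the other way it was the same. An exchange of dyes, an exchange of genotypes on the treatment arrays and a true reversal between cultures cannot be told apart here. In size, Hoxa7 differed by 4.01 on the treatment arrays and by 4.24 on the direct ones, and Hoxd4 by -2.62 and -2.76. Hoxc8 differed by less on the direct arrays, where its weaker channel read 5.57 and 5.32 and was well above background on both.

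**Figure D4:**
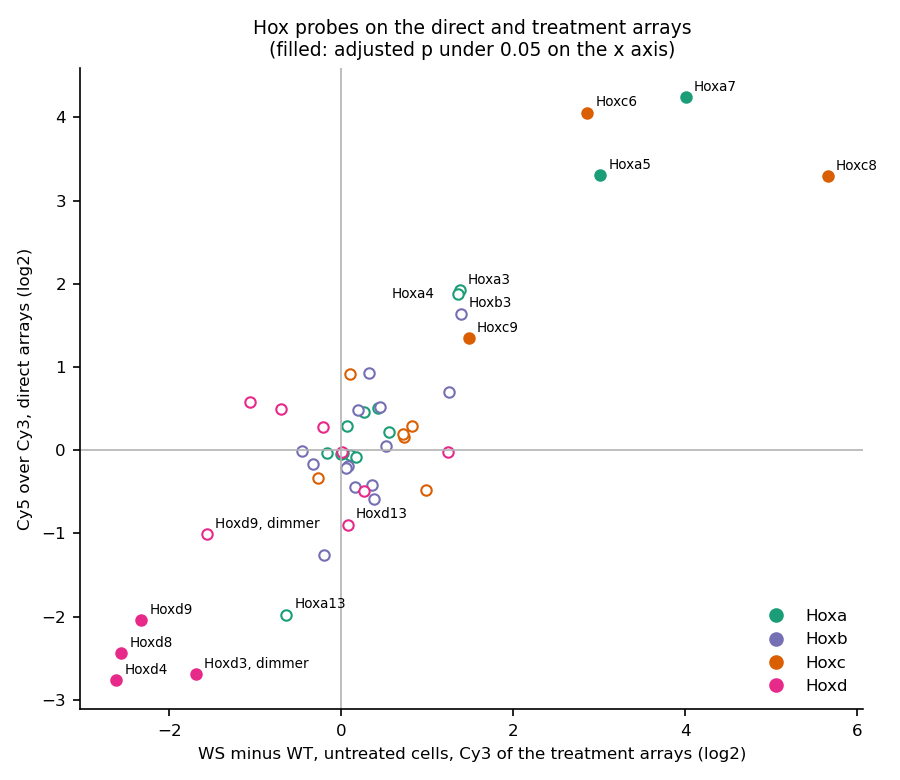
Each point is a Hox probe, with WS minus WT in untreated cells of the treatment arrays on the x axis and Cy5 over Cy3 on the direct arrays on the y axis, both log2. Colours are clusters, filled points have an adjusted p under 0.05 on the x axis, and names are given where either value was called. The 9 filled points lie at the upper right and lower left, Hoxc8 and Hoxa7 farthest out on one side and Hoxd4 on the other.

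Whether H2O2 changed the Hox genes was asked in each genotype as treated over untreated on the same array. In WT cells 0 of 49 Hox probes were called by limma, beside 337 of 40303 probes (0.836%), and 13 had an unadjusted p under 0.05, beside 19.9% of all probes. In WS cells 0 Hox probes and 0 of all 41052 probes were called (0%), and 6 Hox probes had an unadjusted p under 0.05, beside 12% of all probes. The log2 ratio of 35 of the 38 genes in WT and of 36 in WS cells was within 1 of no change. The medians were -0.14 and 0.01, beside -0.01 and 0.01 over all probes. The largest ratios among the brightest probes were those of Hoxa13 and Hoxb13 at the tail end, and other genes there did not all follow. Hoxd12 gave 0.14 in WT and 0.31 in WS cells, Hoxc13 -0.46 and 0.04, and Hoxd13 -0.95 and -0.62. The dimmer probe of Hoxa13, with no marked spot, gave -0.55 and -0.0004. Hoxa13 read -2.29 on WT replicate 1 and -1.59 on WS replicate 1, and Hoxb13, a gene of the tail tip and prostate, -2.16 and -1.42, both with their spots on the second replicates marked (adjusted p between 0.123 and 0.463). Hoxa9 fell outside 1 in WT cells only, with -1.43 on 1 unmarked array (adjusted p = 0.102). Hoxc6 gave 0.68 in WS cells (0.60 and 0.76, adjusted p = 0.277), the largest ratio above 0 there among the brightest probes.

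The smallest adjusted p of a Hox probe in WT cells was 0.0527, for Hoxd13, with -0.77 and -1.14 on the 2 arrays. The genes with paralog number 13 in the Hoxa, Hoxb and Hoxd clusters were also weaker in Cy5 by their brightest probes on the direct arrays, which held no treated cells. Hoxd13 read -0.84 and -0.95 there, Hoxa13 -2.83 and -1.12 and Hoxb13 -2.21 and -0.30. The dimmer probes differ: that of Hoxd13 read 0.14 and 0.42 and that of Hoxa13 -0.10 and -0.07. With the marked spots counted, 6 genes were weaker in Cy5 than in Cy3 on all 6 arrays (Hoxa6, Hoxa13, Hoxb13, Hoxc5, Hoxd4 and Hoxd13). On the other side, 3 were stronger (Hoxa3, Hoxb2 and Hoxc6). How many of all probes kept 1 sign on all 6 arrays was not counted. The part of the dye in these ratios was not tested.

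The responses of the genotypes were not shown to differ at any Hox gene. The difference of the responses, WS minus WT, was called for 0 of 49 Hox probes and 0 of all 40267 probes (0%), with 3 Hox probes and 5.95% of all probes at an unadjusted p under 0.05. The largest values among the brightest probes were 1.07 for Hoxd8, 0.80 for Hoxa9 and 0.73 for Hoxb13, and the dimmer probe of Hoxd9 gave 0.87, with adjusted p of at least 0.832. All of them rest on single arrays in WT or in both genotypes. The counts of 0 for the responses depended on the arrays that share the fit: with the 2 arrays of one genotype alone, 17 Hox probes were called in WT cells beside 26.5% of all probes, and 9 in WS cells beside 12.1%. Hox probes were also called in both genotypes without direct replicate 3 or without direct replicate 4. The share of all probes is not given for those fits.

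**Figure D5:**
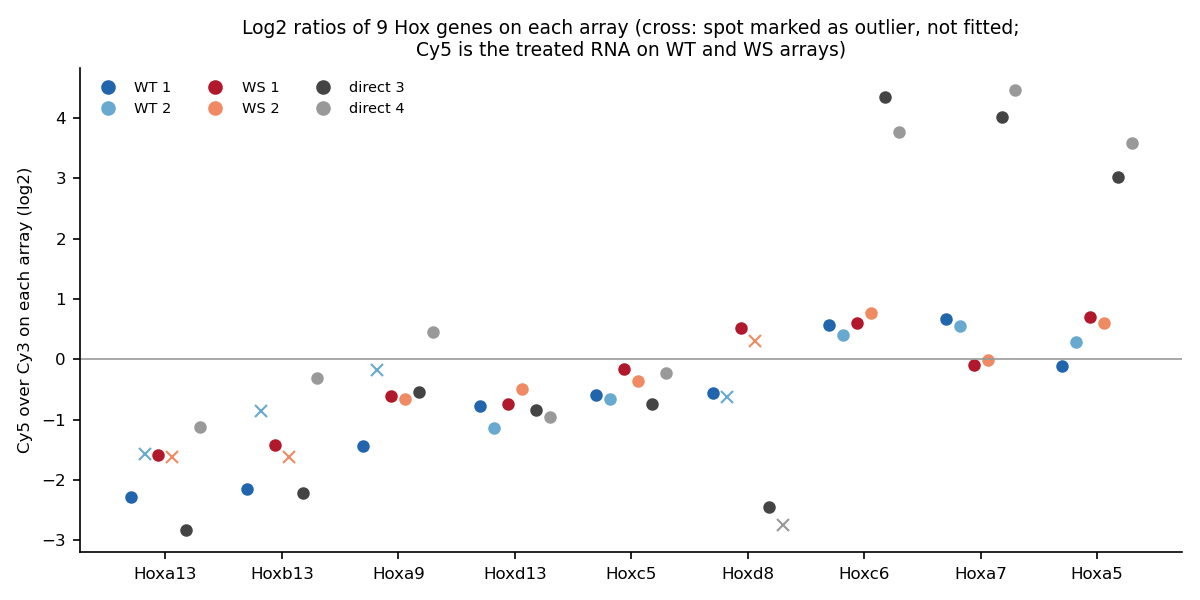
Log2 ratio of Cy5 over Cy3 on each of the 6 arrays for 9 Hox genes. Each colour is 1 array, and crosses are spots marked as outliers. Hoxa13, Hoxb13 and Hoxd13 lie below 0 on treatment and direct arrays alike, and Hoxc6, Hoxa7 and Hoxa5 lie above 3 on the direct arrays and below 1 on the treatment arrays.

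Other genes of position were read from lists. None of 7 Hox cofactors, such as the Pbx and Meis partners that help Hox proteins bind DNA, and none of 22 regulators of Hox chromatin was called between the genotypes in untreated cells of the treatment arrays, with medians of -0.07 and 0.10. On the direct arrays 2 cofactors were higher and 1 lower in Cy5, and 4 regulators were higher and 2 lower, beside the 19.9% of all probes called there. Of 30 limb and trunk genes, 2 were lower in WS cells on the treatment arrays. The difference was -1.66 for Tbx5, which starts the forelimb bud, and -1.93 for Grem1, a BMP antagonist of the limb bud, with 1 unmarked WT array. Of 23 head and branchial genes, Lhx8 (-2.74), a gene of the palate and teeth, was lower in WS cells, and Tbx1, a gene of the pharyngeal arches, was at least 2.82-fold lower (adjusted p = 0.0189). Of 9 ParaHox, Evx and Cdx genes none was called in untreated cells of the treatment arrays, and 1 was higher and 1 lower in Cy5 on the direct arrays. In treated cells Evx2, which lies next to the Hoxd cluster, was higher by 1.98 with 1 unmarked WT array, and Cdx2, an upstream activator of trunk Hox genes, was at least 1.26-fold lower (adjusted p = 0.0379).

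Retinoic acid, which switches on Hox genes at the head end of the clusters, was represented by 17 tested genes with a median of 0.05. Dhrs3 (3.82, adjusted p = 1.45e-06) and Rdh10 (1.51), which convert retinoids in opposite directions, were higher in WS cells. Crabp2, which carries retinoic acid in the cell, was at least 6.71-fold lower and not well above background in WS cells (adjusted p = 0.00115, with 1 unmarked WT array). Of 7 fibroblast markers tested 2 were higher in WS cells, Dcn by 2.23 and Pdgfra by 2.26 with 1 unmarked WS array, and the median of the list was 0.20. In untreated cells the summed Cy3 intensity of the 10 markers was 61893 and 70308 in WT and 91870.1 and 107246 in WS cells with marked spots counted. On the treatment arrays no marker of macrophages, mast cells, skeletal muscle, epithelium, endothelium, neural cells, cartilage or urogenital mesenchyme was called between the genotypes in either dye. On the direct arrays 1 marker each of mast cells, epithelium and neural cells and 2 each of cartilage and urogenital mesenchyme were called, beside 5 of 9 fibroblast markers tested. The part of these differences in the Hox values was not tested.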

How the data were processed

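RNA of 6 dual-colour arrays (4 treatment arrays and 2 direct arrays) was analysed. The authors deposited the scanner output of Agilent Feature Extraction, from which spot and local background intensity in each dye and the flags, which have no unit, were taken. The software's log10 ratios and the authors' table of log2 ratios, which equals Cy5 over Cy3, served as alternatives. The labels name total RNA and the study's methods cytoplasmic RNA, and the software version differs between header and methods. Here the local background was subtracted, each array was normalised by loess, and for single dyes the arrays were also scaled by Aquantile in limma 3.58.1 (R 4.3.3). Control and outlier spots were left out and spots of a probe averaged. Ratios were fitted with lmFit and eBayes over all 6 arrays, with a coefficient for each group of 2, and genotypes within a dye over the 4 treatment arrays. Tests were two-sided with Benjamini-Hochberg adjustment over every measured probe other than controls, called under 0.05. The scripts were tested on simulated data. "Well above background" is the software's flag, and a bound sets the mean of the brighter group against the lowest well-above signal of each array or the probe's own, whichever is higher. It is open to dye bias and leaves out the spread between arrays. Where the probe's own readings were the higher, as for Hoxc8 in untreated cells, the bound equals the fitted fold and is not a limit of its interval. Members, lists and tests were chosen with earlier results of these data known. Full values are given for called members (at most 12 per fit), or the 3 largest where fewer were called, and for at most 4 called genes of each other list, of which some are not reported here. RefSeq windows were found for 22 of the 38 genes. The number of arrays limits the precision.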

Additional observations from a re-analysis of the deposited data

How the results depend on the processing

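No called Hox probe changed its direction under the alternatives run. Of the probes that were not called, counting marked spots turned the genotype difference of Hoxa2 (from 0.27 to -0.16) and Hoxa6 (from 0.10 to -1.20) in untreated cells, and of Hoxa2, Hoxb13, the brighter probe of Hoxa13 and the dimmer probes of Hoxa4 and Hoxd13 in treated cells. Of 9 Hox probes called between untreated genotypes, normexp left 4 and the methods' thresholds (adjusted p under 0.005 and a mean log2 intensity above 6) left 2, Hoxa7 and Hoxc6. Keeping marked spots or median centring gave 7 and a random array block 6. Leaving out 1 array gave between 4 and 13. For treated cells (6), an intensity filter at 6 left 3, the methods' thresholds 2, and leaving out 1 array gave between 3 and 11. For the direct arrays (15), the filter left 9 of 21 probes tested, the methods' thresholds 6, and leaving out 1 array gave between 14 and 24. For the WT response (0), keeping marked spots, the software's ratios and the authors' table gave 1 each, the 2 arrays alone 17, and leaving out 1 array between 0 and 15. For the WS response (0), the 2 arrays alone gave 9 and leaving out 1 array between 0 and 7. The difference of responses stayed at 0 throughout. Where an arm kept 1 array, that array was assumed to vary like the others. Of all probes, the methods' thresholds called 0.392% in untreated cells, 0.427% in treated cells and 2.01% on the direct arrays. For the other alternatives the share of all probes is not given in this section. The cause of these shifts was not tested, nor whether they concern the Hox genes more than other probes. With the replicate number as a block the counts were 13, 7 and 0 for untreated cells, treated cells and the difference of responses. Same-numbered arrays deviated together with r of -0.0366 for ratios, 0.188 for Cy3 and 0.101 for Cy5 over 2 pairs, so the numbers were not shown to pair. A block on scan or slide was not run, since every array had its own slide. The weaker Cy5 signal limits the treated comparison to bounds for several genes.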
